A study of Mus musculus with 8 samples.

Results

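The genes described here encode the proteins of the mitochondrial ribosome in mouse brown adipose tissue, the fat depot that burns fuel to make heat. They were chosen by name alone: every gene with a probe set of 1 symbol that starts with Mrpl or Mrps and a digit, read from its brightest probe set. The rule gave 71 of 22180 genes, 43 with an Mrpl symbol and 28 with an Mrps symbol. A further 7 genes of this kind (Mrpl30, Mrpl33, Mrpl41, Mrpl43, Mrpl44, Mrpl53 and Mrps6) have probe sets shared with another gene and are given apart.

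Mitochondria keep a small genome that encodes core subunits of the respiratory chain, and they translate it on a ribosome of their own. The ribosomal RNAs of that ribosome are transcribed inside the organelle, whereas all of its proteins are encoded in the nucleus, made in the cytosol and imported. A large subunit joins the amino acids and feeds the new chain into the inner membrane, and a small subunit reads the messenger RNA. Brown adipocytes are packed with mitochondria and depend on this supply of respiratory chain subunits.

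Expression was measured on Mouse Gene 2.0 ST arrays in 8 male C57BL/6J mice, 1 array per mouse, with 200 ng of total RNA each. The 3 wild-type (WT) mice and the 5 mice labelled Abhd15 KO, knockouts of the gene for the hydrolase-family protein ABHD15 by their label and called the labelled knockouts below, were 14 weeks of age by the design text, while the growth protocol gives up to 14 weeks on normal chow. They were fasted overnight and given chow again for 1 h before harvest. The tissue was whole brown fat with no sorting of cells, so fewer cells of a type and less RNA per cell cannot be told apart. Litter, scan day and the way the deletion was made are not stated in the labels.

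Abhd15 itself read 5.87 to 6.23 log2 in WT and 5.68 to 6.35 in the labelled knockouts, which gave 0.11 as the fitted difference (95% confidence interval −0.27 to 0.49). Which stretch of the gene was deleted is unknown here. A probe set outside that stretch checks nothing, and each direction below therefore rests on the labels. Of the 12 brown fat markers listed, Ucp1 read 12.5 to 12.9 and Cidea 12.02 to 12.19 over the arrays. Others were lower or more variable, with Dio2 at 4.47 to 8.32 and Prdm16 at 4.95 to 6.00. The arrays had medians of 3.00 to 3.04 and correlated with each other at 0.964 to 0.975. Angptl8 read 7.95 in WT replicate 2 and 7.90 in Abhd15 KO replicate 1, against 10.4 to 10.8 in the other arrays. Why it was lower in these arrays was not tested, and an alternative fit below leaves both out. Markers of other cells differed between mice. All 21 skeletal muscle genes were lower in the labelled knockouts (median −0.53), and 15 of 18 macrophage genes were lower (−0.19). All 10 endothelial genes were higher (0.17), and each list had 0 genes past the adjusted threshold. At an unadjusted p under 0.05 by limma stood 0 muscle genes, 0 endothelial genes and 2 macrophage genes (11.1%, against 3.99% of all genes). The macrophage genes were Mpeg1 at −0.60 (−1.13 to −0.07) and Ccl6 at −0.59 (−1.14 to −0.03). The mean of the muscle genes, relative to its mean over all arrays, ran from −1.12 to 1.60 in WT and from −1.78 to 0.85 in the labelled knockouts.

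No mitochondrial ribosomal protein transcript passed the test between the groups, and most fitted differences were small. Of the 71 genes, 30 had a fitted difference above 0 (42.3%, against 51.7% of all 13223 genes tested) and 41 below 0, with a median of −0.02 log2 against 0.01 over all genes. Without WT replicate 1 the members' median was −0.07 with 23 above 0, against a median of 0.01 over all genes. In limma's fit over all genes, 0 members and 0 of 13223 genes (0%) passed an adjusted p of 0.05; the members' lowest was 0.9997. At an unadjusted p under 0.05 there was 1 member, Mrpl28, which is 1.41% of the members against 3.99% of all genes tested. Among 3007 tested genes of like level, with a mean in the members' interquartile range, the share was 1.56%. Mrpl28 was lower in the labelled knockouts, as were 1.76% of all genes at that p. At that p 0 members and 2.23% of all genes were higher. The number of members at that p in either direction was 0 without WT replicate 1 (4.93% of all genes in that fit), Abhd15 KO replicate 3 (3.88%) or Abhd15 KO replicate 5 (3.49%). It was 2 without Abhd15 KO replicate 4 (4.02%), and 3, or 4.23% of the members, without Abhd15 KO replicate 1 (5.07%) or replicate 2 (3.92%). Without WT replicate 2 or WT replicate 3 it was 1 again (3.82% and 4.49% of all genes), but the member was Mrpl27 (unadjusted p = 0.032 by limma) and Mrpl40 (unadjusted p = 0.0253 by limma) in place of Mrpl28 (0.12 and 0.0601). The groups did not overlap in 3 members (4.23%), against 2.77% of all genes. Mrpl28 and Mrpl32 were lower in every labelled knockout (1.19% of all genes did so) and Mrpl48 was higher in each of them (1.58% of all genes).

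The precision of these genes was higher than that of most genes on the array. In 45 of 71 members the difference was under 0.1 log2 in size, and in 67 (94.4%) the 95% confidence interval stayed inside a 1.5-fold change in either direction, against 65.3% of all genes tested. The 4 members with wider intervals were Mrpl27, Mrpl40, Mrps14 and Mrps36. These intervals hold for 1 gene at a time. Their median half-width was 0.27 log2 over the members, 0.30 over the genes of like level and 0.36 over all genes. The within-group SD had a median of 0.14 log2 over the members, 0.23 over all genes tested and 0.17 over the 3007 genes whose mean lay in the members' interquartile range of 6.24 to 7.74 log2. This precision was not particular to the members. Cytosolic ribosomal protein genes and the brown fat markers each had a median SD of 0.14 and a median half-width of 0.27. From the lowest to the highest of the 8 arrays the members spanned between 0.18 and 1.30 log2. The median span was 0.41 against 0.67 over all genes. A span under 0.5 log2 was found in 60.6% of members, 52.0% of the genes of like level and 30.4% of all genes.

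**Figure D1:**
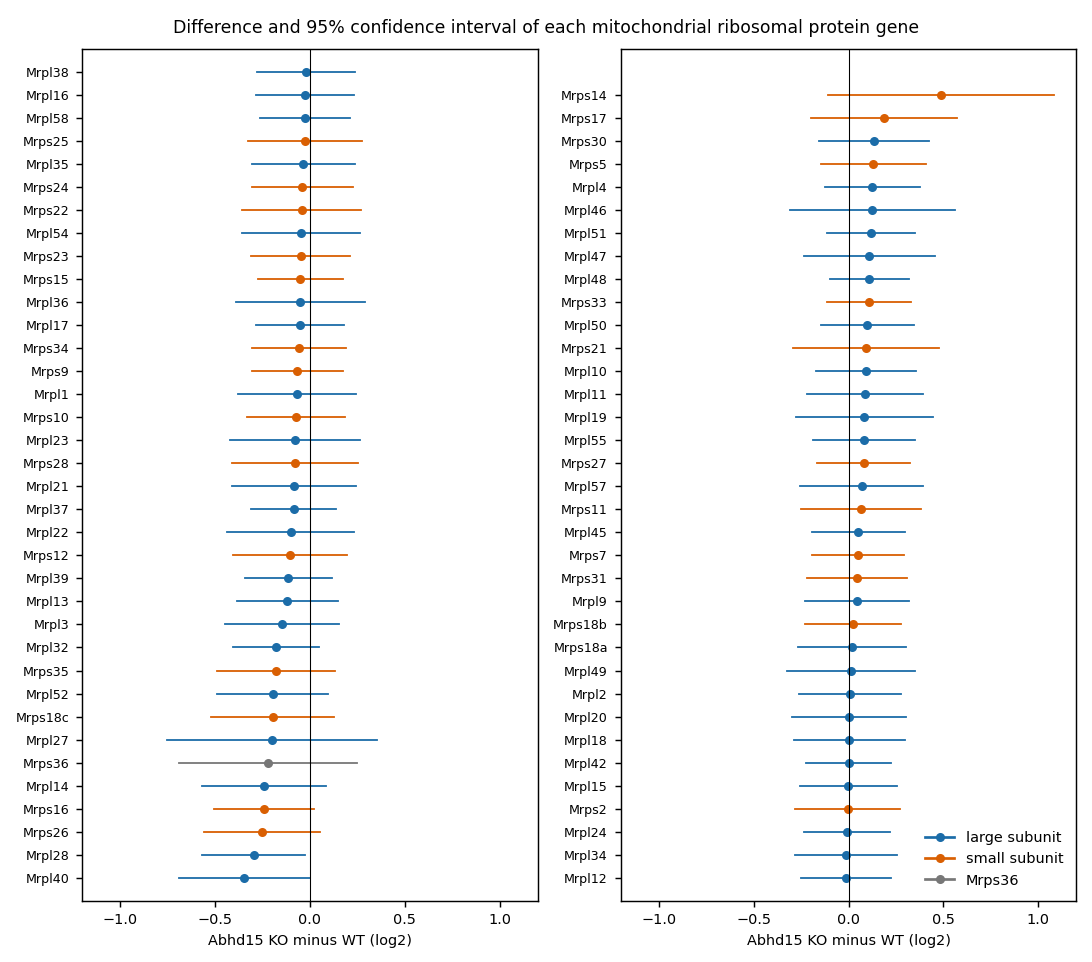
Difference between the 5 labelled knockouts and the 3 WT arrays for each of the 71 genes, in log2 units, with limma's 95% confidence interval as a line, coloured by subunit (blue, large; orange, small; grey, Mrps36) and ordered from the lowest (bottom left) to the highest (top right). The points lie between −0.34 for Mrpl40 and 0.49 for Mrps14, and 1 interval, that of Mrpl28, leaves out 0.

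**Figure D2:**
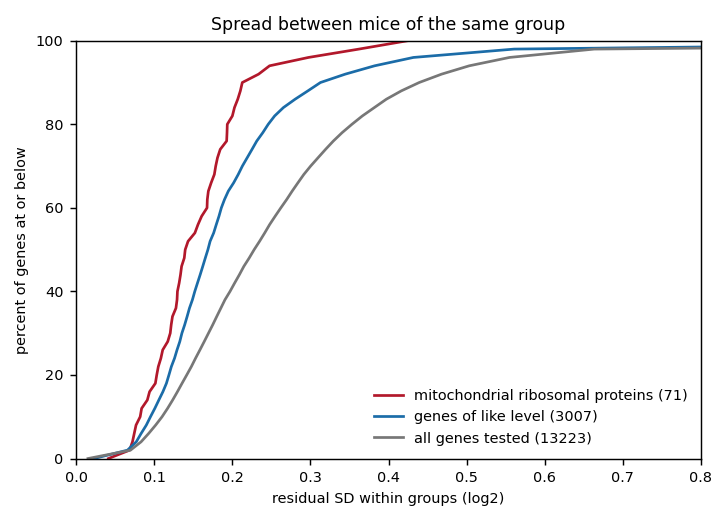
Cumulative percent of genes (vertical axis) at or below a given within-group residual SD in log2 units (horizontal axis, shown up to 0.8). The curve of the 71 mitochondrial ribosomal protein genes has its median at 0.14, that of 3007 genes of like level at 0.17 and that of all 13223 genes tested at 0.23.

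The large subunit was represented by 45 genes, since the products of Mrps18a and Mrps30 sit in that subunit in spite of their symbols. Of these, 20 were above 0 and 25 below, with a median of −0.01. The lowest fitted difference was that of Mrpl40, a mitochondria-specific protein of the central protuberance. It read 4.99, 5.28 and 4.79 in WT (replicates 1 to 3, the order used throughout) against 4.67, 4.86, 4.35, 4.70 and 4.79 in the labelled knockouts (replicates 1 to 5), a difference of −0.34 (−0.69 to 0.00). The groups overlapped, since WT replicate 3 lay below Abhd15 KO replicate 2.

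Mrpl28, which has a bacterial counterpart in protein L28, read 5.78, 5.94 and 5.78 in WT and 5.45, 5.65, 5.53, 5.73 and 5.34 in the labelled knockouts. All WT arrays were above all of the others. The means were 5.83 ± 0.09 (SD, n = 3) and 5.54 ± 0.16 (SD, n = 5), a difference of −0.30 (−0.57 to −0.02, unadjusted p = 0.0368 and adjusted p = 0.9997 by limma). Over 18 other ways of processing or choosing arrays, the difference of Mrpl28 ran from −0.34 to −0.22 and its unadjusted p by limma from 0.0209 to 0.18.

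Mrpl32, whose product is cut to its mature form by the m-AAA protease of the inner membrane, read 6.80, 6.88 and 6.71 in WT and 6.66, 6.59, 6.69, 6.63 and 6.51 in the labelled knockouts. The groups did not overlap, although WT replicate 3 and Abhd15 KO replicate 3 lay close together. The difference was −0.18 (−0.40 to 0.05, unadjusted p = 0.11 by limma). Mrpl48, another protein of the central protuberance, read 3.94, 3.91 and 3.89 in WT and 4.04, 4.06, 3.98, 4.07 and 3.97 in the labelled knockouts. It was higher in each of those 5 arrays than in any WT array, by a difference of 0.11 (−0.10 to 0.32, unadjusted p = 0.268 by limma), and it had the smallest within-group SD of the members, 0.04.

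Mrpl14, which lies where the subunits meet, differed by −0.24 (−0.57 to 0.09). On the higher side, Mrpl51, a mitochondria-specific protein, differed by 0.12 (−0.11 to 0.35) and Mrpl4, a protein with a bacterial counterpart in L4, by 0.13 (−0.12 to 0.37). Both sides are given as values, because none of these members passed the test.

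The parts of the large subunit gave no common direction. Among the proteins around the peptidyl transferase centre, where amino acids are joined, Mrpl2, Mrpl3, Mrpl16 and Mrpl27 had a median of −0.08 with 1 of 4 above 0. In the stalk that receives translation factors, Mrpl10 and Mrpl11 differed by 0.09 each, and Mrpl12, which has also been reported to bind the mitochondrial RNA polymerase, by −0.01 (−0.25 to 0.22). Mrpl12 read 7.60, 7.82 and 7.75 in WT and 7.66, 7.78, 7.63, 7.67 and 7.80 in the labelled knockouts, so the values of the groups lay within each other. Around the exit tunnel, 2 of 6 genes were above 0 with a median of −0.03, and Mrpl45, which ties the ribosome to the inner membrane, differed by 0.05 (−0.19 to 0.30). In the central protuberance, 4 of 7 genes were above 0 with a median of 0.00.

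Mrpl58, a peptidyl-tRNA hydrolase built into the large subunit, differed by −0.02 (−0.26 to 0.21). Mrps30 and Mrps18a, the large subunit proteins with small subunit symbols, differed by 0.13 (−0.15 to 0.42) and 0.02 (−0.27 to 0.30). Mrpl46, also of the central protuberance, was among the 4 members with the largest within-group SD (0.29). It read 5.61, 5.01 and 5.49 in WT and 5.30, 5.62, 5.23, 5.42 and 5.92 in the labelled knockouts, which puts its lowest array in WT and its highest in the other group.

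**Figure D3:**
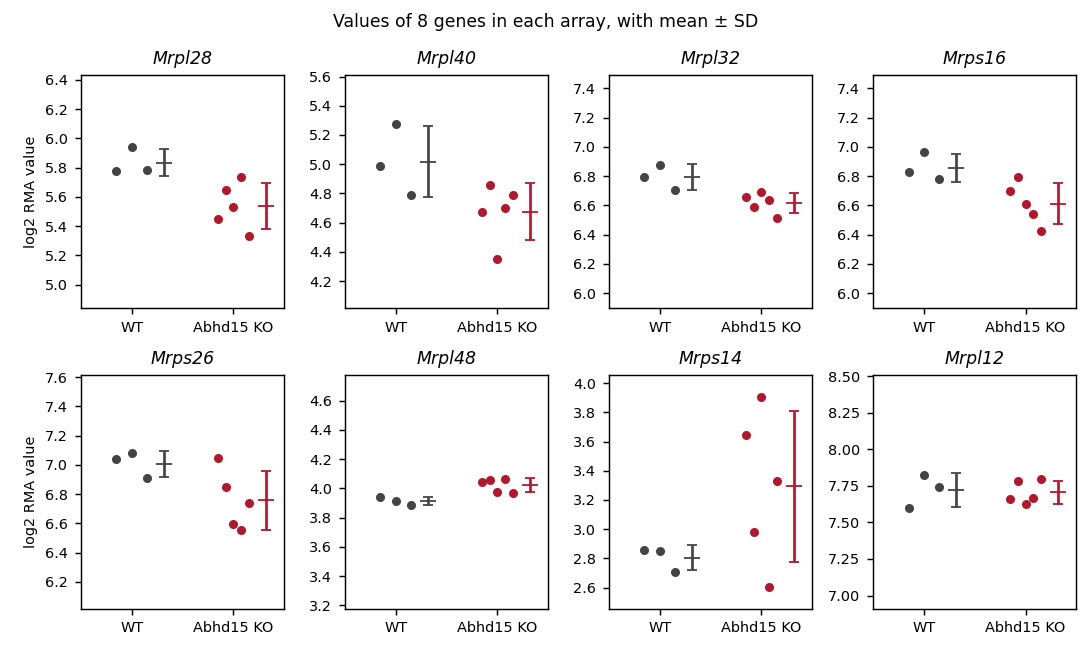
Log2 values of 8 genes in the 3 WT arrays (grey) and the 5 labelled knockouts (red), with the mean and SD of each group beside the points and vertical axes of equal length. Mrpl28, Mrpl32 and Mrpl48 show no overlap between the groups, Mrpl12 lies within the same range in both, and Mrps14 spreads from 2.61 to 3.91 in the labelled knockouts.

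The small subunit was represented by 25 genes, of which 10 were above 0 and 15 below, with a median of −0.04. Mrps16, a protein with a bacterial counterpart, read 6.83, 6.96 and 6.78 in WT and 6.70, 6.79, 6.61, 6.54 and 6.43 in the labelled knockouts. Only Abhd15 KO replicate 2 reached into the WT range, and the difference was −0.24 (−0.51 to 0.02). Mrps26, a mitochondria-specific protein, differed by −0.25 (−0.56 to 0.05). Its highest array in the labelled knockouts was replicate 1 at 7.05, inside the WT range of 6.91 to 7.08, and the other 4 lay between 6.55 and 6.85.

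Mrps14, a protein of the small subunit's head, had the highest fitted difference and also the largest within-group SD of the members, 0.42. It read 2.86, 2.85 and 2.71 in WT, all under the dim limit of 2.88 log2, and 3.64, 2.98, 3.91, 2.61 and 3.33 in the labelled knockouts, 4 of them above it. The dim limit is the level that 95% of values of olfactory and vomeronasal receptor probe sets stay under. Mrps14 passed the filter only through the group where it was high, so its fitted difference of 0.49 (−0.11 to 1.08) is no support for a change. The mean of 3.29 in the labelled knockouts stood 1.33-fold above the dim limit, or 1.197-fold without Abhd15 KO replicate 3. That ratio is no minimum for a change, since it leaves out the spread between mice and 1 labelled knockout was itself under the limit. Mrpl27 was the other member near that limit, with 2 arrays above it in each group.

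Mrps33, a mitochondria-specific protein of the head, differed by 0.11 (−0.11 to 0.33), and Mrps17 by 0.19 (−0.20 to 0.57). The head as a whole had 4 of 8 genes above 0 with a median of 0.00, and the body 6 of 16 with a median of −0.04. Mrps12, a protein of the decoding centre, read 4.77, 5.03 and 4.86 in WT and 4.79, 4.80, 4.50, 5.01 and 4.82 in the labelled knockouts, a difference of −0.10 (−0.41 to 0.20). Mrps18b and Mrps18c, which with Mrps18a make up the mammalian relatives of bacterial S18, differed by 0.025 (−0.23 to 0.28) and −0.20 (−0.52 to 0.13). Mrps36 belongs to the set by its symbol only, because its product is now regarded as a subunit of the 2-oxoglutarate dehydrogenase complex of the citric acid cycle. It differed by −0.22 (−0.69 to 0.25), with a within-group SD of 0.32.

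Proteins with a bacterial counterpart had 10 of 28 genes above 0 in the large subunit (median −0.02) and 6 of 15 in the small subunit (−0.04). Mitochondria-specific proteins had 10 of 17 above 0 in the large subunit (0.01) and 4 of 10 in the small subunit (−0.03). With 1 member at an unadjusted p under 0.05 among the 4 classes together, these counts are given as descriptions.

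Of the mitochondrial ribosomal proteins that carry another name, 3 were tested, and the others, among them Chchd1 and Aurkaip1, were not analysed here. Gadd45gip1, a large subunit protein, differed by −0.18 (−0.43 to 0.07), Dap3, of the small subunit's head, by −0.08 (−0.37 to 0.20), and Ptcd3, a small subunit protein with RNA-binding repeats, by 0.07 (−0.20 to 0.34). The probe set that Mrpl43 shares with Twnk, the gene of the mitochondrial DNA helicase, read 6.40, 6.36 and 6.49 in WT and 6.57, 6.62, 6.45, 6.58 and 6.61 in the labelled knockouts (difference 0.15, exact two-sided permutation p = 0.0357, where 56 splits allow no p below 0.0179). Abhd15 KO replicate 3 lay inside the WT range, and which of these genes the signal came from cannot be told apart. The probe set Mrpl44 shares with Wdfy1 differed by −0.06 and that of Mrps6 and Slc5a3 by −0.07. The other shared probe sets of genes outside the 71 differed by −0.08 to 0.14.

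For 9 members a second probe set of 1 symbol was present, and for some of them the pair gave unlike values. The dimmer probe set of Mrps18c (17439609) read 2.74, 3.24 and 2.76 in WT and 3.77, 3.80, 3.26, 3.54 and 4.32 in the labelled knockouts. Each of those 5 values was above each WT value, though Abhd15 KO replicate 3 and WT replicate 2 were nearly level, with a difference of 0.82 (0.31 to 1.34, unadjusted p = 0.00539 and adjusted p = 0.9997 by limma). The brighter one (17547990) went the other way (−0.20). Of the WT arrays 1 was above the dim limit for the dimmer probe set. This probe set passed the filter only through the labelled knockouts, so its difference, interval and p are no support for a change. Which probe set reads Mrps18c better was not tested.

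Mrpl47, a protein near the exit tunnel, showed a like gap. Its dimmer probe set (17548266) read 3.84, 4.37 and 4.53 in WT and 4.49, 5.07, 4.79, 5.26 and 5.39 in the labelled knockouts, a difference of 0.75 (0.23 to 1.27, unadjusted p = 0.00951 by limma), with Abhd15 KO replicate 1 inside the WT range. The brighter one differed by 0.11 (−0.23 to 0.45). A probe set that Mrpl47 shares with Actl6a went the other way (−0.11). Shared probe sets were also present for the members Mrpl19 (with Gcfc2, 0.21), Mrps27 (with 6430562O15Rik, 0.24) and Mrps34 (with Nme3, −0.05). For Mrps17 the pair differed in sign (0.19 and −0.23). For Mrps16 the pair gave −0.24 and −0.24, and for Mrps18b 0.025 and 0.0099. The pairs of Mrpl10 (0.09 and −0.06), Mrpl12 (−0.01 and 0.10), Mrpl36 (−0.05 and 0.02) and Mrps5 (0.13 and −0.06) differed in sign at small values. When every probe set of 1 symbol was tested on its own, 3 of 80 probe sets of the members had an unadjusted p under 0.05, against 3.98% of 13954 probe sets, and 0 passed the adjusted threshold. The 3 were that of Mrpl28 and the dimmer ones of Mrpl47 and Mrps18c. The one of Mrps18c counts only because it passed the filter through the labelled knockouts.

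**Figure D4:**
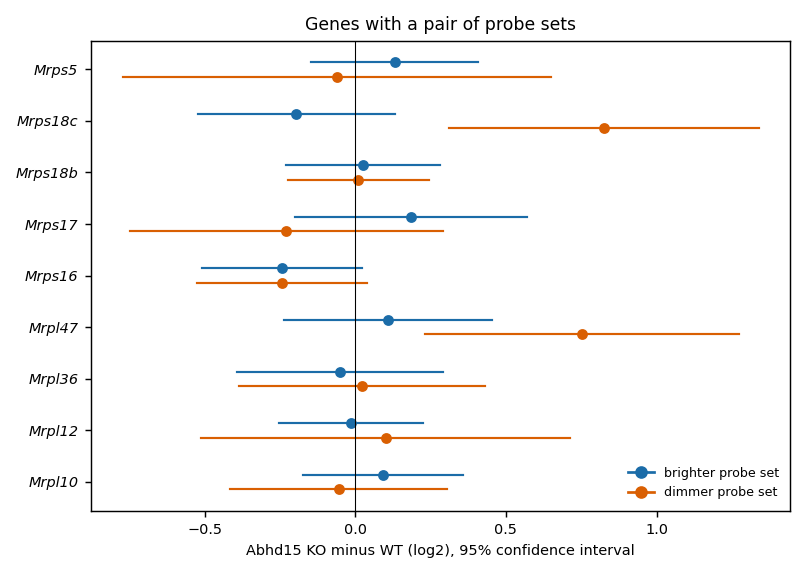
Difference between the labelled knockouts and WT, in log2 units with limma's 95% confidence interval, for both probe sets of the 9 genes that have a pair (blue, brighter; orange, dimmer). The dimmer probe sets of Mrps18c (0.82) and Mrpl47 (0.75) lie to the right of 0, while the brighter ones of the same genes lie at −0.20 and 0.11.

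Between mice, the genes of both subunits moved by small amounts in the same direction in most arrays. Relative to its mean over all arrays, the large subunit mean stood at −0.059, 0.040 and 0.067 in WT, against −0.034, 0.029, −0.024, −0.031 and 0.012 in the labelled knockouts. The small subunit mean was −0.056, 0.057 and 0.013 in WT and 0.017, 0.026, −0.011, −0.047 and 0.002 in the labelled knockouts. The signs were opposite in Abhd15 KO replicate 1 and alike in the other 7 arrays. Across the 8 arrays the means had a Pearson's r of 0.73 and a Spearman's rho of 0.64, and r was 0.74 without WT replicates 1 and 3, the arrays farthest from the median. These arrays share 1 normalization, and the value is a description.

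The mean over all members was lowest in WT replicate 1 and highest in WT replicate 2. Of the 71 genes, 17 (23.9%) had their lowest value in WT replicate 1, against 11.6% of all genes tested, and 0 had their highest there, against 11.5%. In WT replicate 2, 23 (32.4%) had their highest value, against 15.9% of all genes. The mean of all members ran from −0.054 to 0.051 inside WT (SD 0.059, n = 3). In the labelled knockouts its SD was 0.026 (n = 5). The difference between the group means was −0.022 and was not tested. Single pairs of members were only loosely tied, with a median r of 0.08 over 2485 pairs against 0.01 over pairs of genes of like level.

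Muscle genes ran opposite to these small shifts in some arrays only. Their mean was highest in WT replicate 1 (1.60), where the members' mean was lowest. It was lowest in Abhd15 KO replicate 2 (−1.78), where the members' mean was 0.032. In WT replicate 2, where the members' mean was highest (0.051), the muscle mean was also above 0 (0.56). Over the 8 arrays Pearson's r was −0.64 and Spearman's rho −0.55. Without WT replicate 1 and Abhd15 KO replicate 2, r was −0.37. Muscle gave the r of largest size among the gene lists compared with the members' mean. The other lists ran from −0.18 (endothelial) to 0.50 (mitochondrial aminoacyl-tRNA synthetases), and all are descriptions. With the muscle mean as a covariate the median difference of the members was −0.04, with 26 of 71 above 0 and 0 at an unadjusted p under 0.05 by limma, against 4.38% of all genes in that fit. Beyond that fit the part of muscle in the members' values was not tested. Genes with a cytosolic ribosomal protein symbol, whose products make up the ribosome of the cytosol, were above 0 in 20 of 58 tested (median −0.06), with 5 (8.62%) at an unadjusted p under 0.05, against 3.99% of all genes. The mean of these 58 genes had an r of −0.08 with the members' mean (Spearman's rho −0.10, and r −0.29 without Abhd15 KO replicates 3 and 5).

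**Figure D5:**
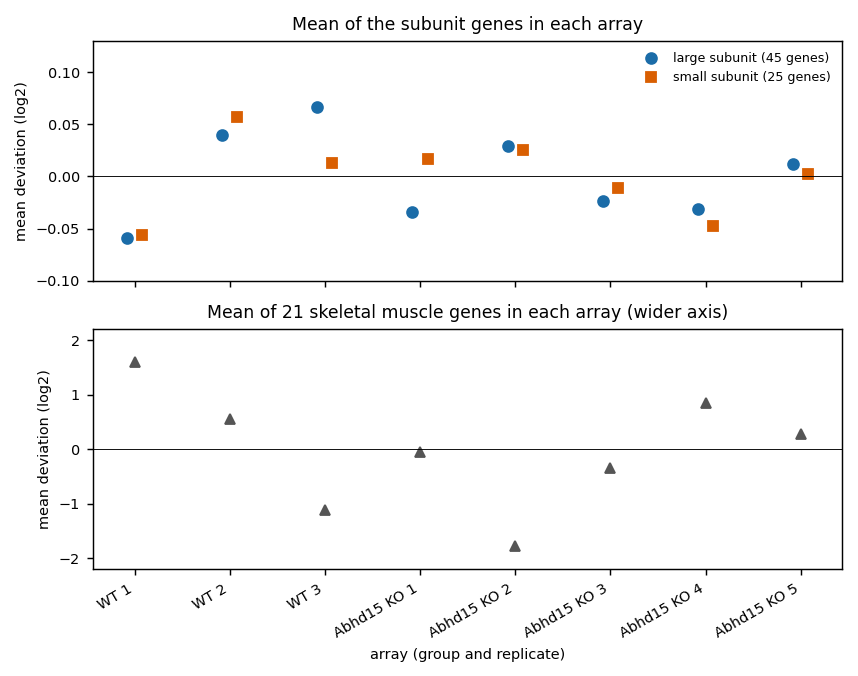
Top, mean of the 45 large subunit genes (circles) and of the 25 small subunit genes (squares) in each array, as the deviation in log2 units from each gene's mean over the 8 arrays. Bottom, the same for 21 skeletal muscle genes on a wider axis; WT replicate 1 is lowest at the top (−0.059 and −0.056) and highest at the bottom (1.60).

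Promoters were searched for 3 short motifs, with shares given as descriptions. A window from 250 bases before to 50 bases after the start site was present in RefSeq (GRCm38.p6) for 62 of the 71 genes, with a median GC content of 58.0% against 60.5% for tested genes. The ETS-family core CCGGAAG, which GABPA binds, was found on either strand in 23 of 62 genes (37.1%), against 18.3% of 10344 tested genes with a window and 9.93% of all 27025 genes in the table. The YY1 element, whose letters are the capitals in the start of the Mrps18a transcript below, was found in 5 genes (8.06%, against 1.66% of tested genes), and the palindrome that the factor NRF1 binds, in capitals in Mrpl32 below, in 3 (4.84%, against 2.22%). No motif contains another, and 29 genes (46.8%, against 21.3%) held at least 1 of them and the rest held none. A match describes the letters only.

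Promoters of 6 members are shown from 120 bases before to 29 bases after the first transcribed base, 5′ to 3′ on the gene's strand, with motif matches in capitals. Matches on the opposite strand, such as those at the start of Mrps11 and in the middle of Mrps27, appear as the reverse complement. Mrpl28 and Mrpl32 are members whose groups did not overlap, Mrpl58 holds the ETS core more than 1 time, Mrps18a and Mrps27 pair it with the YY1 element, and Mrps11 faces another member across a short gap.
Mrpl28 (chr17:26123383-26123532, plus strand): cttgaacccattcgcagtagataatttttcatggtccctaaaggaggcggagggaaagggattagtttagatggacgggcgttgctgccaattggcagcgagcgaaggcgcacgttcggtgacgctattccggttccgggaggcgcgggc
Mrpl32 (chr13:14613008-14613157, minus strand): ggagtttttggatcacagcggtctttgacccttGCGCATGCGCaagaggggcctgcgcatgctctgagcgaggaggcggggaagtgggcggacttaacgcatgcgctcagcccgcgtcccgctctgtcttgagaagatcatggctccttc
Mrpl58 (chr11:115403632-115403781, plus strand): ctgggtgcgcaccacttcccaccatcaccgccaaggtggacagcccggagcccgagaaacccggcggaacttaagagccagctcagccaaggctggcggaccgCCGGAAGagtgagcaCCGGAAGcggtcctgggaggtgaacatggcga
Mrps11 (chr7:78783011-78783160, plus strand): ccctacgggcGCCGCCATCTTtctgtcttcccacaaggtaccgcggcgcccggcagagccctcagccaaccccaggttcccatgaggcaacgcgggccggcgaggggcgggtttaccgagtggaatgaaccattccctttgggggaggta
Mrps18a (chr17:46110884-46111033, plus strand): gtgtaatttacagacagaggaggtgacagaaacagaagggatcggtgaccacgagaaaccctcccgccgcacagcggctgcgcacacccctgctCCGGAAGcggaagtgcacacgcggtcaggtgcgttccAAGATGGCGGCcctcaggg
Mrps27 (chr13:99344666-99344815, plus strand): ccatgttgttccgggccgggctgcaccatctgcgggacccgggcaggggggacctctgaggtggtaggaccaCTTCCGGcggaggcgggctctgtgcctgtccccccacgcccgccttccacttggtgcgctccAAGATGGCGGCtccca

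Of the 3 members whose groups did not overlap, Mrpl32 holds the NRF1 palindrome, Mrpl48 holds the ETS core and Mrpl28 holds none of the motifs. The groups overlapped in Mrpl9 (0.04) and Mrpl39 (−0.11), which also hold the palindrome. A link between motif and difference was not tested. Among the genes of the factors themselves, Nrf1 differed by −0.17 (−0.59 to 0.25), Gabpa by 0.06 (−0.21 to 0.34) and Yy1 by −0.20 (−0.44 to 0.05). Ppargc1a, a coactivator that raises nuclear genes for mitochondria, differed by 0.29 (−0.29 to 0.87), and Myc, a growth factor-responsive transcription factor, by −0.66 (−1.57 to 0.25). Of the 9 regulators listed, 5 were above 0, with a median of 0.06 and 0 at an unadjusted p under 0.05.

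Many of the genes also start back to back with a neighbour. In 23 of 62 members (37.1%, against 18.9% of tested genes with a window) the start site of another gene lay upstream on the opposite strand within 1000 bases, at a median distance of 131 bases. Mrps11 and Mrpl46 form such a pair, 42 bases apart, and differed by 0.07 (−0.25 to 0.38) and 0.13 (−0.31 to 0.56). In Mrps11 the arrays read 6.21, 6.25 and 6.11 in WT and 6.49, 6.47, 5.98, 6.22 and 6.12 in the labelled knockouts, so the array in which Mrpl46 was highest, Abhd15 KO replicate 5, was among the lower ones for Mrps11. Mrps12 faces Sars2, the mitochondrial seryl-tRNA synthetase, 147 bases away, which differed by 0.04 (−0.28 to 0.36). Mrpl47 faces Ndufb5, a complex I subunit, 308 bases away, which differed by 0.03 (−0.19 to 0.24). Of the 20 partners that were tested, 1 (against 3.99% of all genes) had an unadjusted p under 0.05 by limma, Ighmbp2, a helicase gene that faces Mrpl21 (0.42, 0.06 to 0.79), and it is named after its value was seen.

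The other genes of mitochondrial protein synthesis gave 0 calls past the adjusted threshold. Of 14 translation factor genes 11 were above 0, with a median of 0.06, and the pair of lowest p were the elongation factor Tsfm at −0.21 (−0.56 to 0.13) and Taco1, an activator of cytochrome c oxidase subunit translation, at 0.16 (−0.17 to 0.50). Of 21 mitochondrial aminoacyl-tRNA synthetase genes 14 were above 0 (median 0.015), with Nars2 at −0.18 (−0.48 to 0.11) and Gatb, which helps to charge the glutamine tRNA, at −0.19 (−0.56 to 0.17). Of 13 genes of mitochondrial DNA and transcription 4 were above 0 (median −0.02), with the RNase P subunits Trmt10c at 0.21 (−0.09 to 0.50) and Prorp at 0.15 (−0.12 to 0.42).

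In the list of ribosome assembly and rRNA modification, 15 of 28 genes were above 0 (median 0.03) and 2 (7.14%, against 3.99% of all genes) had an unadjusted p under 0.05, both of them factors that build the small subunit. Ybey, a ribonuclease-like assembly factor that acts with the Mrps11 protein, read 3.84, 3.92 and 3.90 in WT and 4.77, 4.34, 4.58, 4.42 and 4.55 in the labelled knockouts (difference 0.64, 0.37 to 0.92). Mettl17, a methyltransferase-like assembly factor, read 5.03, 5.26 and 4.82 in WT and 5.67, 5.33, 5.31, 5.48 and 5.36 in the labelled knockouts (difference 0.40, 0.09 to 0.70). The groups did not overlap in either gene, which is 7.14% of the list against 2.77% of all genes. Both were named for having the lowest p in the list, so this is no further support. The adjusted p by limma was 0.9997 for both. Ybey was already known from earlier work on these data to stand among the genes of lowest p, so its place here is no independent support.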

How the data were processed

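The authors deposited log2 values, 1 per probe set and array (41345 probe sets), which per the submitters' processing notes were made with RMA and oligo, with no version given. The series' design text mentions Expression Console instead, so the program is not settled. RMA makes array distributions nearly alike, which hides any shift common to most genes. For the probe sets' build, none was named. Gene symbols came from GEO's platform annotation (23521 with 1 symbol, 1814 with several, 16010 unnamed). Symbols were checked by Entrez identifier against RefSeq GRCm38.p6 (23328 matched, 0 updated). Levels of different probe sets are not set against each other.

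The 13223 genes above a dim limit of 2.88 log2 (95th percentile of 1400 olfactory and vomeronasal receptor probe sets) in at least 3 arrays were tested with limma 3.58.1 in R 4.3.3 (lmFit, eBayes, 1 group term, Benjamini-Hochberg over all genes). All 71 members passed this filter. The exact permutation test, two-sided, served for single values. Intervals in parentheses are limma's 95% confidence intervals. The number of arrays limits the precision. The members and lists were chosen with earlier results of these data known.

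Members were named by rule: the 6 of lowest unadjusted p per direction, the 4 of largest within-group SD, those whose groups do not overlap, 10 fixed genes, and those with a second probe set. In the macrophage list, the regulator list and the lists of mitochondrial protein synthesis, DNA and transcription the 2 genes of lowest p are named. Nrf1 and Gabpa were added for their motifs, and Ppargc1a is also named. For the muscle, endothelial and cytosolic ribosomal lists no gene is named. Alternatives were a block for replicate number, other filters, centring, quantile normalization, trend and robust fitting, array weights, mean of probe sets, the muscle mean as a covariate, and leaving out arrays; testing each probe set on its own was added after the data were seen.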

Additional observations from a re-analysis of the deposited data

Results flagged for a closer look

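Among the 76 sets of 5 values checked in the arrays labelled Abhd15 KO, 1 held an array far from the rest by Dixon's criterion, which chance alone meets in about 1 of 20 sets. Mrpl10, a protein at the base of the factor-binding stalk, read 8.77 in Abhd15 KO replicate 1 and 8.44 to 8.53 in the other 4, a gap of 0.731 of the range. WT has 3 arrays and could not be checked in this way.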

How the results depend on the processing

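Over 18 alternative settings and 1 added after the data were seen, 0 members and 0 genes passed the adjusted threshold in limma. The number of members above 0 ran from 23 to 35 of 71, and the median difference of the members from −0.0747 without WT replicate 1 to −0.0031 without WT replicate 3. The number of members at an unadjusted p under 0.05 was 2 (2.82%, against the share of all genes in parentheses) with the replicate block (3.19%), median centring (3.99%), quantile normalization (4.08%) and the mean of a gene's probe sets (4.02%), and 2 of 69 (2.90%) with genes above the limit in all 8 arrays (3.87%). It was 0 with trend and robust fitting (3.48%), the muscle covariate (4.38%) and without WT replicate 2 and Abhd15 KO replicate 1 together (4.02%), 3 of 80 with each probe set on its own (3.98%), and 0 to 3 leaving out 1 array (3.49% to 5.07%). Mrps14 is in the count with the replicate block, and the dimmer probe set of Mrps18c is in the 3 of 80. Both passed the filter only through the labelled knockouts, so they are no support for a change. Array centring or quantile normalization put 25 or 26 members above 0, and 47.8% or 47.9% of all genes against 51.7%.

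Of 27 named members 17 kept their direction throughout. The other 10 turned as follows. With the mean of probe sets Mrpl12 was at 0.0429, Mrps17 at −0.0219 and Mrps18c at 0.314. With the replicate block Mrpl47 was at −0.0093 and Mrpl58 at 0.022. Without WT replicate 2 and Abhd15 KO replicate 1 together Mrpl12 was at 0.0477, Mrpl46 at −0.0033 and Mrps17 at −0.0402. Leaving out 1 array gave ranges of −0.0776 to 0.0359 for Mrpl12, −0.0276 to 0.327 for Mrps17, −0.509 to 0.0471 for Mrpl27, −0.0528 to 0.244 for Mrpl46, −0.0589 to 0.012 for Mrpl58, −0.055 to 0.113 for Mrps18a, −0.0385 to 0.134 for Mrps18b and −0.113 to 0.028 for Mrpl36. The cause was not tested, apart from the probe sets themselves. The labels do not say whether the replicate numbers pair the mice. Deviations of same-numbered arrays correlated at −0.26, −0.10 and 0.02, which cannot show whether mice shared a litter or day. The block changed no call at the adjusted threshold. At an unadjusted p under 0.05 by limma the block exchanged the members: Mrpl28 was at 0.0991, Mrps14 at 0.0279 and Mrpl40 at 0.0423. Mrps14 passed the filter only through the labelled knockouts, so its p is no support for a change. Near the dim limit (Mrps14, Mrpl27 and the dimmer probe sets of Mrps18c and Mrps5) differences are the least certain. Values may be compressed there, which was not measured.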
